A study of Mus musculus with 45 samples.

Results

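The genes described here are those of the proteasome, the cell's main protein-degrading complex. They were taken as all entries of the RNA-seq count table whose symbol is Psm followed by a letter from a to f and a number, which gave 46 of 24918 entries. Of these, 44 passed a filter on low counts, together with 12961 genes in all. The rule also takes in Psme2b, a gene without introns that is a near copy of Psme2, and Psmc3ip, which is not a subunit but a cofactor of meiotic recombination that shares the prefix. RNA was sequenced from colonic epithelium, freed from the colon with EDTA, in male C57BL/6 mice. The mice were 6 weeks old when the diets began, and the colon was taken after the diets ended. Control mice received a diet of 10% fat for 20 weeks, obese mice a diet of 60% fat for 20 weeks, and formerly obese mice the 60% diet for 15 weeks and then the 10% diet for 5 weeks, with 5 mice in each group and 1 library per mouse. No genetic change was made in these mice, and each library comes from a mixture of cells, so that fewer cells of a type and less RNA per cell cannot be told apart. The libraries held 15230391 to 22762095 counts, and the proteasome genes took 0.373% to 0.441% of them, a share of 0.401% ± 0.025 (SD, n = 5) in control mice, 0.405% ± 0.0044 in obese mice and 0.399% ± 0.02 in formerly obese mice. Epithelial markers (Epcam, Cdh1, keratins and Vil1) summed to between 13070 and 15440 CPM (counts scaled to library size) in each library, against 28.44 to 79.51 CPM for 16 markers of immune cells, none of them at 0 in all libraries.

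The proteasome works in the cytosol and nucleus on proteins tagged with ubiquitin. Its barrel, the 20S core particle, is built of alpha rings that gate the channel and beta rings that carry the active sites, and the 19S regulatory particle, with a ring of ATPases and a lid of other subunits, recognises and unfolds the substrate. In most cells the active sites are those of the constitutive subunits encoded by Psmb5, Psmb6 and Psmb7; the immunoproteasome carries Psmb8, Psmb9 and Psmb10 in their place, subunits that interferon gamma is known to induce and that are known for cutting peptides for MHC class I molecules. Cells of the intestinal lining use both forms.

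The regulatory sequence upstream of the genes that the results turn on is shown first. Each window runs from 250 bases before the gene's start to 50 bases after it (RefSeq, GRCm38.p6, which is the mm10 build of the counts). Capitals mark 2 motifs known from interferon signalling, the gamma-activated site (GAS, TTCNNNGAA) and the interferon-stimulated response element (ISRE, GAAA, any 2 bases, GAAA), and in the Psmb5 window the antioxidant response element (ARE, TGACNNNGC), known as a site of NRF2-type factors. All 3 were searched on both strands. The first is Psmb8 (chr17:34197945-34198244, plus strand), the subunit that differed most between mice, the second is Psmb9 (chr17:34187281-34187580, minus strand), its neighbour, the third is Irgm1 (chr11:48871371-48871670, minus strand), the gene outside the list whose level followed Psmb8 most closely, and the last is Psmb5 (chr14:54617946-54618245, minus strand), the constitutive partner of Psmb8.
Psmb8: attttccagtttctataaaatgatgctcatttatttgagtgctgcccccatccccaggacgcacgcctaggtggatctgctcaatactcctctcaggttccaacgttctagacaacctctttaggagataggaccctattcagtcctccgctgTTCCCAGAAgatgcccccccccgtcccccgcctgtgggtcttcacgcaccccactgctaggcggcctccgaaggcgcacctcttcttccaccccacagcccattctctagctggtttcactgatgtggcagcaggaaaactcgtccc
Psmb9: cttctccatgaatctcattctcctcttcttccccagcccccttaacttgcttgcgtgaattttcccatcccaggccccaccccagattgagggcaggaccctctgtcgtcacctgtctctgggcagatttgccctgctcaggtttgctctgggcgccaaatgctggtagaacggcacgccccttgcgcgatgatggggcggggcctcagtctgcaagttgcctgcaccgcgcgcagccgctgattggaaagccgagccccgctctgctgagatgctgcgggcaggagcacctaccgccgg
Irgm1: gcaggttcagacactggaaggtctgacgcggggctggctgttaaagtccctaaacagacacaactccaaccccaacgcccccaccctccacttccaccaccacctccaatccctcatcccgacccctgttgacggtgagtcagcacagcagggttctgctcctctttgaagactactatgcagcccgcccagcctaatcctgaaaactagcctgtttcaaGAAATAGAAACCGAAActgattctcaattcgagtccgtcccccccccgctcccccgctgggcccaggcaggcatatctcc
Psmb5: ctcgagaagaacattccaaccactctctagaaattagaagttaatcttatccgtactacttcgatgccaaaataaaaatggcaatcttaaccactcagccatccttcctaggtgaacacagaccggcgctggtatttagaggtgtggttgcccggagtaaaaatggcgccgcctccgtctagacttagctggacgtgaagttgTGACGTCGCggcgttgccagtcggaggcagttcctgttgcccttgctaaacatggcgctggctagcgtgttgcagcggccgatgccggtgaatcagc
The Psmb8 window held 1 GAS, beginning 97 bases before the start. In the Irgm1 window, 2 overlapping ISRE matches began 30 and 24 bases before the start. Neither interferon motif was in the Psmb9 window, which overlaps that of the peptide transporter gene Tap1 on the opposite strand by 275 bases. The ARE letters stood 47 bases before the start of Psmb5 and 9 bases before that of Psmb6. Of 46 proteasome genes, 39 had a window. The GAS letters were in 2 of these (Psmb8 and Psmd2) and in 8.3% of the 32851 windows of all genes. The ISRE letters were in 4 (Psmb3, Psmd4, Psmd9 and Psme1) and in 3.44% of all windows, and the ARE letters in 6 (Psmb5, Psmb6, Psmc6, Psmd12, Psmd9 and Psme4) and in 12.4%. Psma8, Psmb1, Psmb2, Psmb7, Psmc3, Psmd3 and Psmd7 had no window.

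Across the proteasome as a whole, expression differed little between obese, formerly obese and control mice. Calling a gene took a change of more than 1.2-fold, up or down, with p under 0.01 and an adjusted p under 0.25 (edgeR's quasi-likelihood test, Benjamini-Hochberg adjustment over all 12961 genes). None of the 44 tested proteasome genes was called between obese and control mice, where 1.58% of all genes were, and 0 of 44 had an unadjusted p under 0.05, against 10.9% of all genes. Between formerly obese and control mice 0 of 44 were called, against 3.72% of all genes, with 2 at an unadjusted p under 0.05 (Psmd11, a lid subunit, and Psme2), against 16.7% of all genes. DESeq2 likewise called 0 in both comparisons. Between formerly obese and obese mice 1 of 44 was called, Psmb10, against 2.65% of all genes, with 3 at an unadjusted p under 0.05 (Psmb10, Psme2 and the alpha subunit Psma6), against 13.4% of all genes. The median log2 fold change of the 44 was 0.0042, 0.0274 and 0.0217 in the 3 comparisons, beside medians of 0.0002, -0.0006 and 0.0023 over all tested genes. The first and the last of the 3 medians turned sign in some alternatives, the first in 7 of 19 and the last in 2 of 19. The comparisons share libraries, so that these values are not independent.

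The size of change that the data leave room for was small for most subunits. The 95% interval of the log2 fold change lay inside 1.2-fold in either direction (0.263 on the log2 scale) for 38 of 44 genes between obese and control mice, for 37 between formerly obese and control mice and for 37 between formerly obese and obese mice. Over all tested genes, which were not matched to the proteasome genes in level, this held for 51.9%, 48.2% and 50.5%. For 36 proteasome genes all 3 intervals were inside that range, among them the 3 constitutive catalytic subunits, the 6 ATPases and the 11 non-ATPase subunits of the 19S particle. The 5 genes with no interval inside it were all 3 immunoproteasome subunits (Psmb8, Psmb9 and Psmb10), Psma3 and Psmc3ip. Psmb3 and Psme2 had 1 interval inside, and Psmd9, an assembly chaperone of the 19S base, had 2. Psmc3ip was the lowest tested gene at 1.3 CPM per kb of exon, and the interval widens where counts are few.

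**Figure D1:**
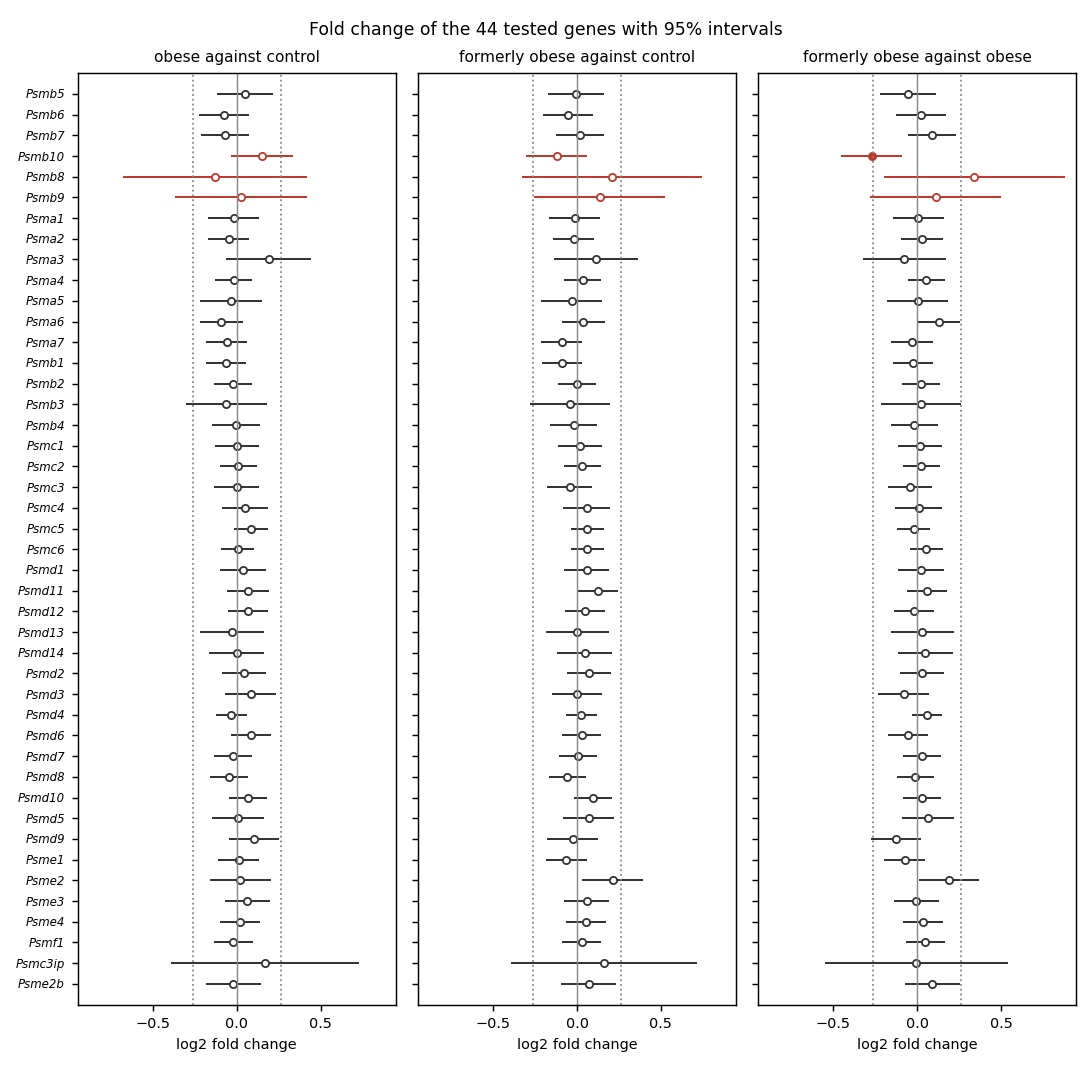
Log2 fold change (x axis) with its 95% interval (bars) of the 44 tested proteasome genes in the 3 comparisons, with immunoproteasome subunits in red, called genes as filled points and 1.2-fold as dotted lines. For 36 genes the bars stay between the dotted lines in each panel, and the single filled point is Psmb10 in formerly obese against obese mice.

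None of the constitutive catalytic subunits was called. Psmb5, which carries the chymotrypsin-like site (chr14:54614120-54617995), was at 22.92, 23.97, 21.58, 29.67 and 25.28 CPM in control mice 1 to 5, at 25.85, 22.8, 26.6, 26.7 and 25.76 CPM in obese mice and at 23.53, 23.69, 26.21, 23.95 and 25.45 CPM in formerly obese mice. The groups overlapped, and its log2 fold change was 0.05 ± 0.08 (SE) in obese against control mice (adjusted p = 0.871 by edgeR), -0.01 ± 0.08 in formerly obese against control mice (adjusted p = 0.98) and -0.06 ± 0.08 in formerly obese against obese mice (adjusted p = 0.813). Psmb6, the caspase-like subunit (chr11:70525357-70527858), had means of 100.2 ± 12.2, 95.16 ± 1.47 and 96.53 ± 6.68 CPM (SD, n = 5) in control, obese and formerly obese mice. Psmb7, the trypsin-like subunit (chr2:38588046-38643906), had means of 102.7 ± 10.8, 97.83 ± 1.87 and 103.9 ± 8.94 CPM. For both, the log2 fold changes lay between -0.07 and 0.09, and the adjusted p-values between 0.616 and 0.934. Control mouse 4 was the highest of the 15 for all 3 genes.

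Psmb8 and Psmb9 of the immunoproteasome differed widely between mice of the same group, and neither was called between groups. Psmb8 (chr17:34198195-34201454), which replaces Psmb5, was at 39.99, 20.3, 22.76, 38.72 and 20.33 CPM in control mice 1 to 5, at 23.84, 41.99, 24.3, 15.28 and 24.5 CPM in obese mice, and at 23.01, 31.46, 27.99, 48.34 and 33.59 CPM in formerly obese mice. Control mice 1 and 4, obese mouse 2 and formerly obese mouse 4 were the highest, each group held both high and low mice, and the highest value was 3.16 times the lowest. Its log2 fold change was -0.13 ± 0.26 (SE) in obese against control mice (adjusted p = 0.906), 0.21 ± 0.25 in formerly obese against control mice (adjusted p = 0.72) and 0.34 ± 0.25 in formerly obese against obese mice (adjusted p = 0.613). Without control mouse 1 or 4 or obese mouse 4 the first of these turned sign, to at most 0.02. The last interval, from the model of all 15 mice, ran from -0.20 to 0.87 on the log2 scale. Neither no change nor a large one was outside it. Psmb9 (chr17:34182099-34187330), which replaces Psmb6, was at 25.54, 13.88, 16.06, 24.38 and 16.27 CPM in control mice, at 16.92, 28.3, 16.99, 16.41 and 19.46 CPM in obese mice, and at 19.63, 19.81, 16.82, 27.02 and 22.62 CPM in formerly obese mice. The same 4 mice were the highest as for Psmb8. Its log2 fold changes were 0.03 ± 0.18, 0.14 ± 0.18 and 0.11 ± 0.18, with adjusted p-values of 0.979, 0.753 and 0.85, and the first turned to -0.14 without obese mouse 2.

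Psmb10 (chr8:105935728-105938392), which replaces Psmb7, fell in formerly obese compared with obese mice. It was at 157.5, 171.9, 136.1, 138.9 and 148.8 CPM in obese mice 1 to 5, at 122.2, 126.7, 119.1, 147.9 and 108.2 CPM in formerly obese mice, and at 147.6, 117.8, 127.1, 148.2 and 137.8 CPM in control mice. All 5 formerly obese mice were below the median of the obese mice, but formerly obese mouse 4 was higher than obese mice 3 and 4, so that the groups overlapped. The log2 fold change was -0.27 ± 0.08 (SE, adjusted p = 0.153 by edgeR), or 0.829-fold. Obese against control mice gave 0.15 ± 0.08 (adjusted p = 0.534) and formerly obese against control mice -0.12 ± 0.08 (adjusted p = 0.498), neither of which passed the threshold. The call was lost when the trend of each library with gene GC content was removed (-0.23, adjusted p = 0.303), and without obese mouse 1 (-0.25), obese mouse 2 (-0.22) or formerly obese mouse 1 (-0.26), 3 (-0.26) or 5 (-0.22). In the same comparison all 7 colonocyte markers were higher, 6 of them at an unadjusted p under 0.05 by edgeR, against 13.4% of all genes. Of the 7, 3 were called (Slc26a3 at 0.62, Car4 at 0.37 and Guca2a at 0.29 on the log2 scale), against 2.65% of all genes. DESeq2 called 4, with Aqp8 added. The summed levels of the 7 markers were 7499 to 12100 CPM in obese and 9979 to 15660 CPM in formerly obese mice. The part of this rise in the Psmb10 difference was not tested.

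**Figure D2:**
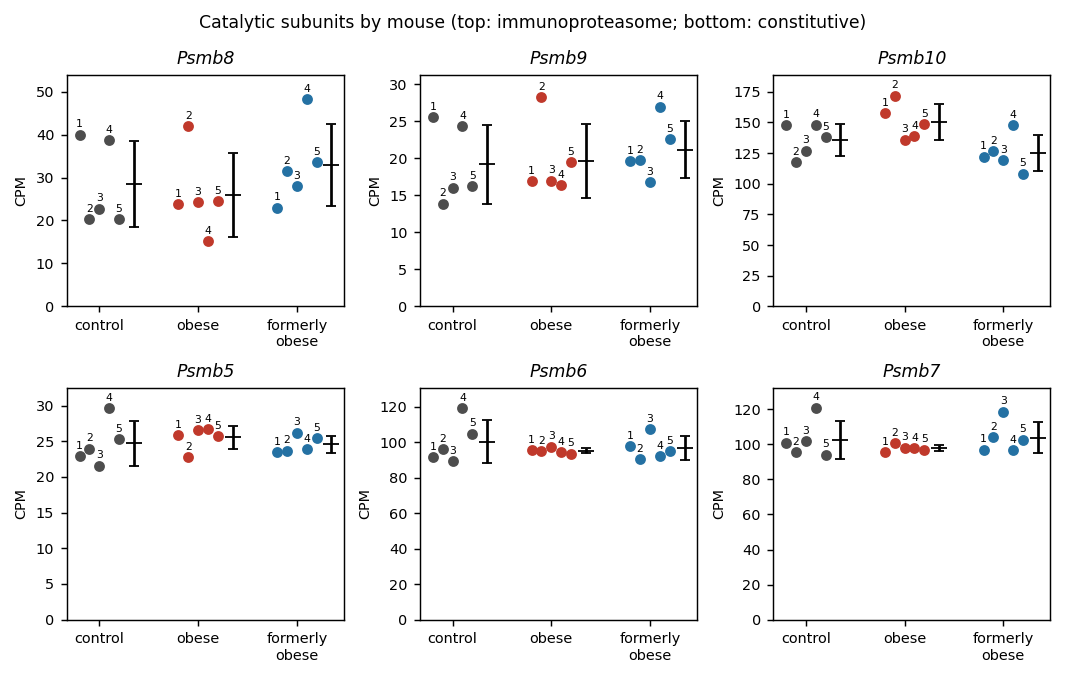
CPM (y axis, from 0) of the 3 immunoproteasome subunits (top) and their constitutive partners (bottom), 1 point per mouse with its number, and mean with SD at the right of each group (n = 5). Psmb8 and Psmb9 are highest in control mice 1 and 4, obese mouse 2 and formerly obese mouse 4, while Psmb5 stays between 21.58 and 29.67 CPM.

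The ratio of an immunoproteasome subunit to its partner within a mouse does not depend on how libraries are scaled. The mean log2 ratio of Psmb8 to Psmb5 was 0.14 ± 0.46 (SD, n = 5) in control mice, -0.05 ± 0.60 in obese mice and 0.38 ± 0.40 in formerly obese mice. That of Psmb9 to Psmb6 was -2.41 ± 0.37, -2.30 ± 0.33 and -2.20 ± 0.33. That of Psmb10 to Psmb7 was 0.40 ± 0.13, 0.62 ± 0.13 and 0.26 ± 0.24. In a two-sided exact permutation test, the Psmb10 to Psmb7 ratio was lower in formerly obese than in obese mice by a log2 difference of -0.36 ± 0.12 (SE; p = 0.0238, adjusted p = 0.214 over the 9 tests). The difference between obese and control mice was 0.22 ± 0.08 (p = 0.0556, adjusted p = 0.25, exact permutation). The other 7 tests gave p-values from 0.214 to 0.595, and no test passed an adjusted p of 0.05. The smallest p that 5 against 5 mice allow is 0.00794. The groups overlapped in each of the 9 comparisons.

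**Figure D3:**
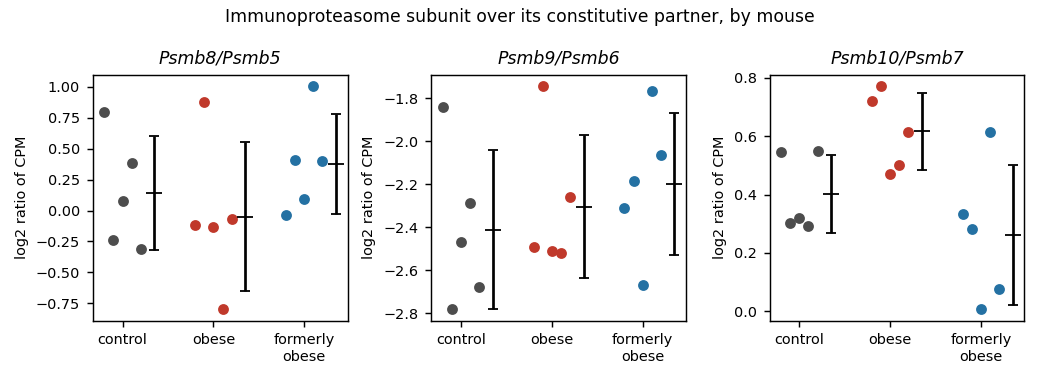
Log2 ratio of CPM of each immunoproteasome subunit over its constitutive partner (y axis), 1 point per mouse, mean and SD at the right of each group (n = 5). The Psmb10/Psmb7 ratio averages 0.62 in obese and 0.26 in formerly obese mice, and the groups overlap in each panel.

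The spread between mice of a group was large for Psmb8 and Psmb9 also when set against other genes. The within-group SD of log2 CPM was 0.471 for Psmb8, larger than for 94% of tested genes, and 0.329 for Psmb9, larger than for 85.3%. It was 0.149 for Psmb10, close to the middle of all genes (58.1%). At the other end, Psmd4, the ubiquitin receptor of the 19S particle, had an SD of 0.0528, smaller than all but 2.82% of tested genes, and the ATPase subunit genes Psmc6 and Psmc5 had SDs of 0.0617 and 0.0635.

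The mice with high Psmb8 also had high levels of interferon-inducible genes. Over the 15 mice, with log2 CPM centred on the mean of each group so that only differences within groups count, the 5 genes of 12960 with the highest Pearson r with Psmb8 were Irgm1 (0.951) and Irgm2 (0.915), GTPases of cell-autonomous immunity, Psmb9 (0.906), Il18bp (0.883), which encodes the binding protein of interleukin 18, and Gbp2 (0.88), a guanylate-binding protein. These values describe a ranking chosen for its height and carry no test. Irgm1 was at 70.07, 51.34, 54.19, 67.4 and 51.01 CPM in control mice 1 to 5, at 53.84, 73.22, 59.76, 51.65 and 56.15 CPM in obese mice, and at 52.72, 64.93, 53.85, 73.83 and 61.3 CPM in formerly obese mice. Gbp2 was at 28.9, 9.43, 5.70, 20.87 and 5.40 CPM in control mice, at 7.49, 41.32, 9.44, 7.98 and 9.13 CPM in obese mice, and at 9.55, 9.46, 8.10, 23.84 and 10.69 CPM in formerly obese mice. The 4 mice highest for Psmb8 were again the 4 highest for both genes.

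Among other lists, the 100 genes most like Psmb8 held 5 of 11 tested genes of MHC class I presentation (Tap1, Tapbp, Tap2, B2m and Nlrc5), and the interferon pathway genes Gbp2, Ifit1, Isg15, Ifit3 and Gbp3 were among them. They held 0 of 12 tested immune cell markers, 0 of 6 epithelial markers and 0 of 24 genes of the ubiquitin-proteasome pathway outside the rule. Of the other 43 tested proteasome genes 3 were among them, Psmb9 at rank 3, Psme1 at rank 58 and Psmb10 at rank 76, and the median r of the 43 with Psmb8 was 0.296, against a median of 0.011 over all tested genes. The median was 0.667 for the MHC class I list, 0.674 for the interferon list and 0.161 for the immune cell markers.

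Over the same 15 mice, the Pearson r with Psmb8 was 0.906 for Psmb9 (Spearman rho 0.875), 0.768 for Psme1 (rho 0.504), 0.733 for Psmb10 (rho 0.654) and 0.555 for Psme2 (rho 0.425). For the constitutive partner Psmb5 it was -0.071 (rho -0.182), for the summed immune cell markers 0.262 (rho 0.161) and for the summed epithelial markers 0.449 (rho 0.289). Within control, obese and formerly obese mice, r was 0.234, -0.079 and 0.659 for the immune markers. For the epithelial markers it was 0.435, 0.842 and 0.067, and for Psme2 0.658, 0.816 and 0.221. For Psmb9, Psmb10 and Psme1 it was 0.609 to 0.978 within groups. These 7 pairs were chosen with earlier results known, so no test is given for them. Without the 2 mice farthest from the median of Psmb8 (obese mice 2 and 4), r was 0.902 for Psmb9, 0.664 for Psmb10, 0.730 for Psme1, 0.485 for Psme2, 0.251 for Psmb5, 0.379 for the immune markers and 0.342 for the epithelial markers. The labels name no sequencing batch, so no relation could be recomputed within batches.

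**Figure D4:**
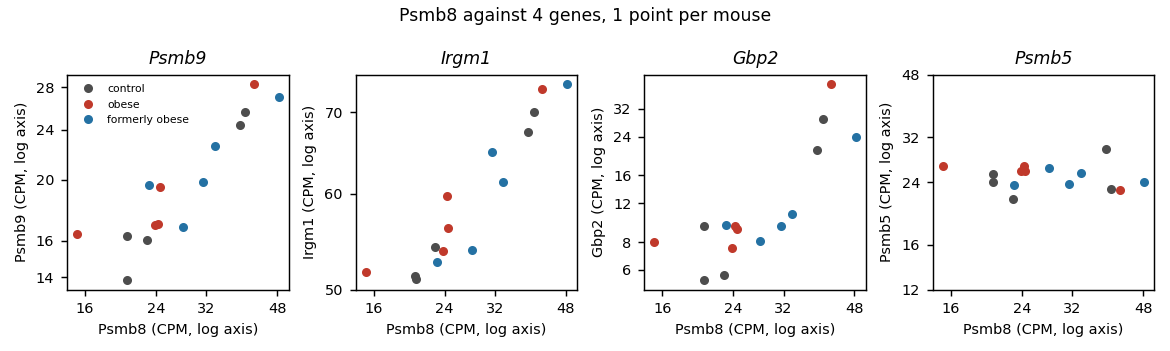
CPM of Psmb9, Irgm1, Gbp2 and Psmb5 (y axes, log scale) against CPM of Psmb8 (x axes, log scale), 1 point per mouse, coloured by diet group. The 4 mice with Psmb8 at 38.72 to 48.34 CPM are also the highest for Psmb9, Irgm1 and Gbp2. Over all 15 mice Psmb5 does not follow, and its r within groups ran from -0.892 (obese) to 0.371 (control).

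The 5 genes most like Psmb5 by the same measure were Bpgm (r = 0.948), Dbi (0.921), Ppp1r14d (0.909), Nudt22 (0.902) and Mtif3 (0.896), none of them a proteasome gene. The nearest proteasome gene was Psmb6 at rank 47 (r = 0.837), followed by Psmb2 (0.761), Psmd13 (0.755) and Psmb3 (0.743). Psmb7, the other constitutive catalytic subunit, was at rank 1231 (r = 0.549). Psmb8, Psmb9 and Psmb10 had r of -0.071, -0.083 and -0.108 with Psmb5.

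The activators of the core particle gave no called gene. Psme1 (chr14:55578494-55581527), the alpha subunit of the interferon-inducible activator PA28, was at 123.7 ± 6.3, 124.6 ± 7.58 and 118.3 ± 8.71 CPM (SD, n = 5) in control, obese and formerly obese mice, with all 3 intervals inside 1.2-fold. Psme2 (chr14:55587440-55591101), the beta subunit, was at 22.05, 16.04, 18.66, 20.13 and 20.46 CPM in control mice 1 to 5, at 20.07, 20.66, 20.71, 17.72 and 19.7 CPM in obese mice, and at 23.24, 19.99, 23.68, 24.83 and 20.98 CPM in formerly obese mice. It had the largest log2 fold change of the proteasome genes in formerly obese against control mice, 0.21 ± 0.08 (SE, adjusted p = 0.197 by edgeR), which missed the thresholds on unadjusted p and fold. Against obese mice the value was 0.19 ± 0.08 (adjusted p = 0.323 by edgeR). Psme2b, its intronless copy, was at 137.2 ± 20.3, 135.3 ± 4.48 and 144 ± 9.76 CPM. With the counts of Psme2 and Psme2b added together, an alternative chosen after seeing the data, the log2 fold change was 0.09 ± 0.07 in formerly obese against control mice (adjusted p = 0.569) and 0.10 ± 0.07 against obese mice (adjusted p = 0.576). Psme3 (nuclear PA28 gamma), Psme4 (PA200) and Psmf1 (the inhibitor PI31) had all 3 intervals inside 1.2-fold.

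In the other classes the largest value was that of Psma3, an alpha ring subunit with 12.22 to 19.94 CPM, at 0.19 ± 0.12 (SE) in obese against control mice (adjusted p = 0.58). The 7 alpha subunits had median log2 fold changes of -0.03, -0.01 and 0.005 in the 3 comparisons, the 4 non-catalytic beta subunits -0.04, -0.03 and 0.003, the 6 ATPases 0.007, 0.04 and 0.01, and the 11 non-ATPase subunits 0.04, 0.03 and 0.03. The subunits with known tissue limits, Psma8 of the testis and Psmb11 of the thymic cortex, had at most 1 count in any library and were not tested.

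In the wider pathway, too, few genes were called. Of 24 tested genes that assemble the proteasome, supply ubiquitin or deliver substrates, 0 were called in obese or formerly obese against control mice. The shares of all genes called there were 1.58% and 3.72%. By edgeR, 3 and 2 had an unadjusted p under 0.05, against 10.9% and 16.7% of all genes. DESeq2 called 1 (Adrm1) and 0. In formerly obese against obese mice 1 of the 24 was called, against 2.65% of all genes. By edgeR 3 had an unadjusted p under 0.05, against 13.4% of all genes. The called gene was Adrm1, a ubiquitin receptor of the 19S particle. It fell by 0.34 on the log2 scale from 11.66 ± 1.32 to 9.2 ± 1.35 CPM (SD, n = 5, adjusted p = 0.197 by edgeR). This call was lost with the GC trend removed (adjusted p = 0.366), with no filter on low counts (0.258), with the compared groups alone, and without any one of obese mice 1, 2, 3 and 5 or formerly obese mice 2, 4 and 5. Of 11 tested genes of MHC class I presentation 0 were called in any comparison by edgeR or DESeq2. By edgeR, 1.58%, 3.72% and 2.65% of all genes were called in the 3 comparisons. By edgeR, 0, 3 and 1 had an unadjusted p under 0.05, against 10.9%, 16.7% and 13.4% of all genes. In formerly obese against control mice 11 of the 11 were higher, with a median log2 fold change of 0.07, beside 6449 of all 12961 tested genes. In obese against control mice 8 were higher, and in formerly obese against obese mice 9, beside 6498 and 6604 of all tested genes. The MHC class I genes vary together across mice (median r with Psmb8 0.667), so that they are not separate observations. Of 13 interferon pathway genes only Irf7, a transcription factor of the interferon response, was called, rising by 0.52 in formerly obese against control mice, from 71.25 ± 14.6 to 102.5 ± 25.4 CPM (adjusted p = 0.102 by edgeR). That call was lost without any one of control mice 1, 2 and 3 or formerly obese mice 4 and 5. Among the cell markers, 6 of 7 colonocyte markers were also higher in formerly obese than in control mice. By edgeR, 5 of the 7 had an unadjusted p under 0.05, against 16.7% of all genes. Called were 3 (Krt20, Slc26a3 and Car4), against 3.72% of all genes. Of 12 immune cell, 6 epithelial, 3 stem cell and 4 smooth muscle and fibroblast markers, edgeR and DESeq2 called 0 in any comparison. By edgeR, at most 2 of a list had an unadjusted p under 0.05. In formerly obese against control mice these were 2 of the 4 smooth muscle and fibroblast markers, against 16.7% of all genes. All 4 were higher there, with a median log2 fold change of 1.09. In formerly obese against obese mice they were 2 of the 6 epithelial markers, against 13.4% of all genes. Krt18 missed the call by edgeR on fold alone, at -0.25 in obese against control and 0.22 in formerly obese against obese mice. So did Vil1, at 0.20 in formerly obese against control mice.

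Compared per length, as mean CPM per kb of exon over the 15 mice, the subunits of one particle were far from equal. The beta ring subunits Psmb1 (186) and Psmb4 (169.4) were highest and Psma3 (7) the lowest of the tested core subunits. Psmb10 at 107.9 and its partner Psmb7 at 104.7 were close together, whereas Psmb9 was at 24.82 against 93.92 for Psmb6, and Psmb8 at 23.79 against 28.62 for Psmb5. The ATPases ran from 52.2 (Psmc1) to 91.4 (Psmc3), the non-ATPase subunits from 23.95 (Psmd11) to 99.95 (Psmd8), the assembly chaperones from 9.09 (Psmd9) to 28.4 (Psmd5), PA28 from 21.1 (Psme2) to 125 (Psme1), and the other activators and the inhibitor from 10.7 (Psmf1) to 46.6 (Psme3).

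Several of the low constitutive values belong to genes with near-identical copies elsewhere in the genome. A read that maps equally well to both places cannot be given to one, and how the counting treated such reads is not given in the sources used here. The longest transcript of each gene was aligned to GRCm38, and each stretch of 50 bases, the length of 1 read of a pair, was looked for at a second locus with at most 2 mismatches. A second locus was found for 20 of 46 genes, and for 10 at least 50% of the stretches were matched there. The share was 100% for Psmb3, 94.4% for Psmb5, 88.4% for Psme2, 78.8% for Psma5 and 36.4% for Psma3, and 0% for Psmb6 and the 3 immunoproteasome genes. With no mismatch allowed, the share was lower: 63.5% for Psmb3, 59.7% for Psmb5, 63.9% for Psme2, 57.6% for Psma5 and 32.7% for Psma3. Only stretches matched without a mismatch fit both places equally well. The copy of Psmb5, annotated as the pseudogene Gm3375 (chr7:3181089-3181959), aligned to 99.89% of the transcript at 98.97% identity. Psme2b (chr11:48945352-48946410) aligned to 88.63% of the Psme2 transcript at 99.37% identity. To show how alike they are, a coding stretch of 120 bases is given for each pair, chosen among those with few differences, with the bases that differ in capitals, at chr14:55588049-55588449 for Psme2 (3 exons joined), chr11:48945576-48945695 for Psme2b, chr14:54616643-54616762 for Psmb5 and chr7:3181351-3181470 for its copy.
Psme2: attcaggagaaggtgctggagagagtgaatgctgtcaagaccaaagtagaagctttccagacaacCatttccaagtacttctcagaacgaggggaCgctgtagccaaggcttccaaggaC
Psme2b: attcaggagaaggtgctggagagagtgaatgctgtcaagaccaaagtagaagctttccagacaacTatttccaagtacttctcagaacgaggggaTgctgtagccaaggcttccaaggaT
Psmb5: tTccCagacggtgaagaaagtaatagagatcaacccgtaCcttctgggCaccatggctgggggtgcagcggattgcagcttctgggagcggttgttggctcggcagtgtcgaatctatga
Gm3375: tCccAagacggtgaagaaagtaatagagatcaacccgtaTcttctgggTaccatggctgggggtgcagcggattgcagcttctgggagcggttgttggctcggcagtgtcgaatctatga
The Psme2 pair differs at 3 of 120 bases and the Psmb5 pair at 4. Among the 14 constitutive core subunits, the 5 with at least 50% of stretches matched elsewhere (Psmb5, Psma2, Psma4, Psma5 and Psmb3) had a median of 30.64 CPM per kb, and the other 9 a median of 115.1, with ranges of 11.63 to 94.79 and 7 to 186.2 that overlap. The value of 7 was that of Psma3, whose copies aligned to 39.95% to 40.41% of its transcript. The next lowest of the 9 was Psma7 at 86.3. The part of copies in these levels was not tested. Psmb5 overlaps the microRNA gene Mir686, Psma6 overlaps Mir1198 and Psme2b overlaps 9930111J21Rik1, each on the same strand, and Psma3, Psma4, Psmd1, Psme1 and Psmc3ip overlap genes on the opposite strand.

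**Figure D5:**
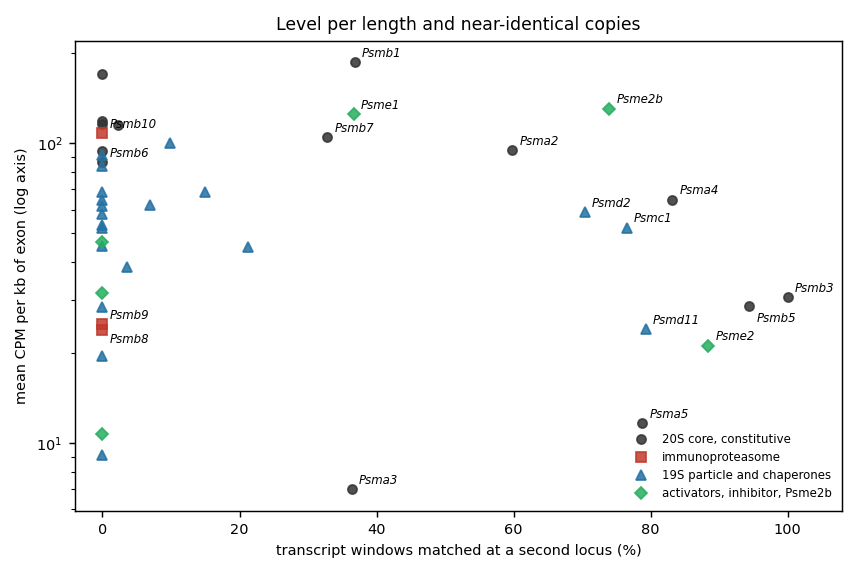
Mean CPM per kb of exon (y axis, log scale) against the percentage of 50-base transcript windows matched at a second locus with at most 2 mismatches (x axis) for 43 tested genes (Psmc3ip left out), by role. The immunoproteasome genes lie at 0%, and Psmb5 and Psmb3 lie at 94.4% and 100% with levels of 28.62 and 30.64.

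DNA methylation differences between obese and control mice were mapped by position only, because the deposited list of 8199 differentially methylated regions (DMRs) holds no value per mouse. A DMR lay inside the gene or within 10 kb of its start for 2 of 44 tested proteasome genes (4.55%) and for 2211 of 12961 tested genes (17.1%). The proteasome genes span a median of 10.6 kb against 21.3 kb for all tested genes. Both DMRs gained methylation in obese mice. One lay in Psmd11 at chr11:80429847-80429857, with its centre 1237 bases after the start, and the other at chr11:97695805-97695849, its centre 7607 bases before the start of Psmb3. The log2 fold change in obese against control mice was 0.07 ± 0.06 (SE, adjusted p = 0.711 by edgeR) for Psmd11 and -0.06 ± 0.11 (adjusted p = 0.892 by edgeR) for Psmb3. Psmb8 and Psmb9 had no DMR within 10 kb, and shared the same 4 DMRs within 100 kb of their starts. None of the CpGs of the bisulfite PCR amplicons lay within 10 kb of a proteasome gene, against 7 of all tested genes.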

How the data were processed

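mRNA libraries were prepared with a stranded kit, sequenced in pairs and, per the labels, mapped by the authors to mm10 with TopHat2 2.0.4. The deposited RNA-seq table holds raw counts per gene from HTSeq, whose settings for strand and multiply mapped reads are not given in the sources used here. The deposited fraction of methylated reads per CpG was used for positions only, and the deposited DMR list for positions and direction. The authors' DESeq2 tables hold fold changes and p-values and were not used. Groups came from the labels. Counts were filtered with filterByExpr, scaled by TMM and fitted with edgeR 4.0.16 (R 4.3.3), all 15 libraries in one model of group. Depth of 15230391 to 22762095 counts per library limits genes with few counts. No 2 libraries of a group agreed within sampling noise (lowest chi-square per degree of freedom 5.66). CPM are per scaled library, and log2 CPM use a prior count of 2. The fit was tested on simulated data. Ratios were compared by exact permutation. Windows and copies come from RefSeq GRCm38.p6, whose entries matched all 46 genes by identifier, with minimap2 2.31.

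Members, lists and tests were chosen with earlier results of these data known. The text names the catalytic subunits, Psme1, Psme2, called genes, the extremes of each comparison, and the 5 genes most like Psmb8 and Psmb5. Other genes named for their interval, spread or copies were chosen after their values were seen. Alternatives were other scaling, filters, thresholds, DESeq2, the compared groups alone, a replicate block, GC correction and leaving out each mouse. A gene of the interferon list is not reported here.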

Additional observations from a re-analysis of the deposited data

Results flagged for a closer look

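In 18 of 141 sets of 5 mice (12.8%), the tested proteasome genes and ratios of a group, 1 mouse lay so far from the other 4 that its gap took over 0.71 of the group's range (Dixon's test). Chance flags about 1 in 20 independent sets, but these sets come from the same libraries and are not independent. Control mouse 4 was the highest of its group in 8 of them, with 121 CPM for Psmb7, 178 CPM for Psma1, 165 CPM for Psma7, 176 CPM for Psmc3, 115 CPM for Psmc5, 120.3 CPM for Psmd13, 104.3 CPM for Psmd7 and 173 CPM for Psme2b. Its library also gave the largest share of counts to proteasome genes (0.441%). In obese mouse 2, Psmb9 (28.3 CPM) and Psme1 (137.9 CPM) were the highest of the group and Psmb5 (22.8 CPM) the lowest. In formerly obese mouse 4 Psme1 was the highest (133.7 CPM), in formerly obese mouse 3 Psmd2 (214.8 CPM) and Psmd3 (153.8 CPM) were, and in formerly obese mouse 1 Psmc2 (86.8 CPM) and Psmc6 (103.7 CPM) were the lowest. In obese mice, the lowest were mouse 1 for Psmd6 (66.2 CPM) and mouse 4 for Psmd8 (141 CPM).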

How the results depend on the processing

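The count of called proteasome genes was 0 in obese and in formerly obese against control mice under each alternative, each mouse left out included. In formerly obese against obese mice it was 1, Psmb10, and 0 with an adjusted p under 0.05 and no fold threshold, 0 with the GC trend removed and 0 to 1 over the mice left out, where 5 of 10 omissions kept the call. The log2 fold change of Psmb10 stayed between -0.34 and -0.22, with adjusted p from 0.0786 to 0.369. The Psmb10 to Psmb7 ratio of the same comparison gave a log2 difference of -0.218 (p = 0.0873, exact permutation) with the GC trend removed, -0.44 to -0.29 over the mice left out (p = 0.0556, exact permutation, without obese mouse 1, 2 or 5), and -0.356 with the replicate block (p = 0.125, exact sign flips over 5 pairs, which cannot give a p under 0.0625). In obese against control mice it was 0.18 to 0.25 over the mice left out, with p from 0.0476 (without obese mouse 3 or control mouse 1 or 5) to 0.0952 (exact permutation). The Psmb8 to Psmb5 ratio was 0.24 to 0.66 in formerly obese against obese mice, with p = 0.0159 (exact permutation) without obese mouse 2. The replicate block changed no other call. Mice with the same number correlated between -0.231 and 0.333 across groups. Mice with different numbers were not compared, so whether the numbers pair mice was not tested. With 100 kb in place of 10 kb, 28 proteasome genes (63.6%) and 57.4% of all tested genes had a DMR. The cause of these changes was not tested. Of the recomputed counts, ratios and levels 160 kept their side of the threshold or size, 8 moved, 4 passed a threshold newly, 5 lost it and 2 turned sign. No value that turned sign was called or passed its test before or after. The Psmb9 to Psmb6 ratio was -0.034 to 0.2495 in obese against control mice and -0.0029 to 0.2462 in formerly obese against obese mice over the mice left out. In obese against control mice the log2 fold change over the mice left out was -0.3697 to 0.0207 for Psmb8, -0.1401 to 0.1476 for Psmb9, -0.0269 to 0.0387 for Psme1 and -0.0399 to 0.0675 for Psme2 (-0.0148 summed with Psme2b). In formerly obese against control mice it was -0.0541 to 0.0694 for Psmb5 (0.0208 with the GC trend removed), -0.0966 to 0.0172 for Psmb6 and -0.038 to 0.0826 for Psmb7 (-0.0082 with the GC trend removed), and for Psmb6 in formerly obese against obese mice -0.0234 to 0.0451. The Psmb8 to Psmb5 ratio in obese against control mice was -0.42 to -0.0016. The sum of Psme2 and Psme2b was chosen after seeing the data. Depth limits Psmc3ip most, at a mean of 1.26 CPM.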
